A study of Mus musculus with 6 samples.

Results

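Markers of bile duct cells, of liver progenitor cells and of hepatocellular carcinoma were followed in the liver of mice exposed to trichloroethylene (TCE), a chlorinated solvent. The 10 genes were Krt7, Krt19, Epcam, Sox9, Spp1, Prom1, Cd24a, Afp, Gpc3 and H19, and every probe of the array whose gene symbol was one of these was taken. This gave 13 probes of the 55681 that are not controls, and 10 of the 24239 gene symbols on the array. Male B6C3F1 mice, labeled as 7w old, received either corn oil (control) or TCE at 1000 mg/kg b.w. by gavage once daily for 5 days. Arrays were run for 3 mice of each group, and liver RNA of each of them went onto a separate 1-colour array, with no pooling.

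The ducts that carry bile are lined by cholangiocytes, which make keratins 7 and 19, Epcam, Sox9 and osteopontin (Spp1), whereas mature hepatocytes make little of these. When hepatocytes are lost or cannot divide, cells with duct features can expand, and such cells carry Prom1, Cd24a and Epcam as well. Afp, Gpc3 and H19 are abundant in fetal liver, are switched off after birth and often return in liver tumours.

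Each value is a log2 signal after quantile normalization, and detected means a signal well above background in every mouse of the control group, of the TCE group or of both. By this rule 22731 probes and 13284 genes were detected. Detected probes were tested with limma (two-sided), and the threshold was a fold change of at least 2 together with an adjusted p (Benjamini-Hochberg) of at most 0.05. Of the 10 genes, 7 were detected, each by 1 probe, and Krt7, Epcam and H19 were not. By limma 0 of the 7 were past the threshold, compared with 1.41% of all detected probes, and with the methods' t-test the number was also 0, without and with adjustment. At an unadjusted limma p under 0.05 there was 1, Prom1, compared with 17.9% of all detected probes. The groups did not overlap for 1 of the 7 probes, compared with 25.7% of all detected probes. That probe was lower in the TCE group and 0 were higher; over all detected probes, 10.2% had separate groups with TCE lower and 15.5% with TCE higher. With so few probes these shares cannot be told from the background. The median log2 fold change of the 7 genes was -0.13 (TCE minus control), beside 0.02 for all detected genes, with 2 genes higher and 5 lower in the TCE group. With 1 mouse left out it ranged from -0.27 to -0.03. All 7 probes but that of Gpc3 were well above background in every mouse. With 3 mice against 3 the lowest p of an exact permutation test (two-sided) is 0.1, and the number of arrays limits the precision of every value.

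**Figure D1:**
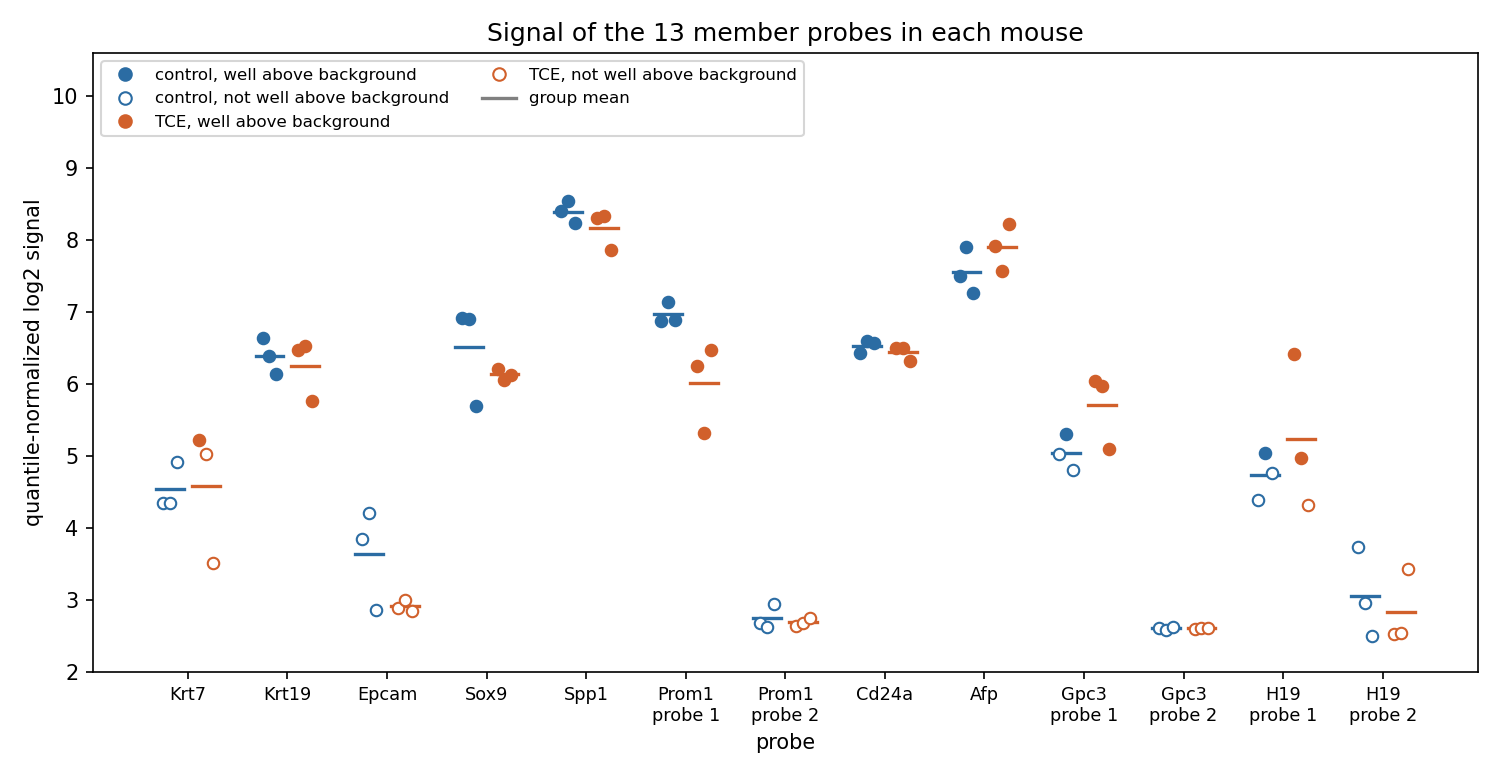
Quantile-normalized log2 signal (vertical axis) of the 13 probes of the 10 genes (horizontal axis) in each control and TCE mouse, with a bar for the mean of each group; filled points were well above background and open points were not. The mice of the groups overlap for every detected probe except probe 1 of Prom1, where the TCE mice lie between 5.32 and 6.48 and the control mice between 6.88 and 7.14.

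Keratins form the filaments of epithelial cells, and keratin 19 pairs with keratin 7 in the duct. The Krt19 signal was 6.64, 6.39 and 6.14 in control mice 1, 2 and 3 and 6.48, 6.52 and 5.77 in TCE mice 1, 2 and 3. TCE mice 1 and 2 lay within the range of the controls, and TCE mouse 3 was the lowest of all 6 mice. The fitted change was -0.13 in log2 (standard error 0.24, 95% interval -0.72 to 0.46, limma adjusted p = 0.819), and without TCE mouse 3 it was 0.11. The Krt7 signal was 4.35, 4.35 and 4.92 in the controls and 5.22, 5.02 and 3.51 in the TCE mice. It was well above background in TCE mouse 1 alone, so no fold change is given. Epcam, an adhesion protein of the duct surface, had a signal of 3.84, 4.21 and 2.85 in control mice and of 2.88, 3.00 and 2.84 in TCE mice, not well above background in any of the 6. The probes of these genes are shown because the detection of a duct gene rests on a single stretch of 60 bases in each case. On the mouse genome build mm9 they lie at chr15:101253718-101253777 on the plus strand (Krt7), at chr11:100002392-100002451 on the minus strand (Krt19) and at chr17:88048972-88049800 on the plus strand (Epcam), the last stretching over 829 bases of the genome, so that an intron lies within it. The sequences are written 5′ to 3′, with no part in capitals:
Krt7: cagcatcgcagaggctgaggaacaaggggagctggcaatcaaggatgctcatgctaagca
Krt19: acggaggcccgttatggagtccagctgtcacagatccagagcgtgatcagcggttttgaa
Epcam: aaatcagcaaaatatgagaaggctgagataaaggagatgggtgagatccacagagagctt
At least 1 reading frame without a stop codon runs through each of the 3. Over all 13 probes the share of G and C was 30% to 55% in the 7 detected and 35% to 55% in the 6 that were not.

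Sox9 is a transcription factor that sets the duct fate. Its signal was 6.92, 6.90 and 5.70 in control mice and 6.21, 6.05 and 6.13 in TCE mice. The TCE mice lay close together, below control mice 1 and 2 and above control mouse 3, which was the lowest of the 6. The group difference was -0.38 in log2 (standard error 0.34, limma adjusted p = 0.606). It was -0.78 without control mouse 3 (limma adjusted p = 0.0997) and -0.17 without control mouse 1, and without control mouse 2 it was -0.18. In bulk liver RNA, fewer cells of a type and less RNA per cell cannot be told apart, for this and every other marker.

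Spp1 encodes osteopontin, a secreted protein that binds integrins. Its signal was 8.40, 8.54 and 8.23 in control mice and 8.31, 8.34 and 7.86 in TCE mice. TCE mice 1 and 2 lay within the controls, and TCE mouse 3 was below them. TCE minus control gave -0.22 in log2 (standard error 0.17, limma adjusted p = 0.555), and without TCE mouse 3 it was -0.06. The probe, at chr5:104868502-104868561 on the plus strand of mm9, is shown because it overlaps the part of the mRNA through which osteopontin meets its receptors. The 27 bases in capitals encode part of the integrin-binding stretch, without its start, up to where thrombin cuts the protein:
Spp1: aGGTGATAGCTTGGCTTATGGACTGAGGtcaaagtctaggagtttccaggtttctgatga
All 8 listed receptor genes of osteopontin were detected, 0 were past the threshold, and their median log2 fold change was -0.01. The changes farthest from 0 were those of Itgav, with 0.68 (limma adjusted p = 0.372), and Itgb3, with -0.21, and the groups overlapped for all 8. Itgb5, whose probe was the brightest, had -0.04.

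Of 25 other genes of bile duct cells, 15 were detected. Past the threshold were 0, the median log2 fold change was -0.05, and 6 were higher in TCE mice and 9 lower. Among the 6 is Gpbar1, which counts as detected through the TCE group alone. The median ranged from -0.17 to -0.01 with 1 mouse left out and was 0.00 with 75th percentile scaling and with normexp, so that it has no clear direction. Among those not detected were Cftr, the chloride channel of the duct, Sctr, the secretin receptor, and Ggt1, Cldn4, Elf3, Ehf, Tspan8, Muc1 and Itgb4. Onecut1, a transcription factor of duct and hepatocyte development, had a signal of 12.10, 10.73 and 14.10 in control mice and of 10.48, 10.64 and 10.78 in TCE mice. The controls ranged widely, with control mouse 3 the highest, and TCE mouse 3 was above control mouse 2. The means differed by -1.68 in log2 (standard error 0.78, limma adjusted p = 0.330). Slc10a2, which takes up bile acids from the duct lumen, differed by 0.68 in log2 (limma adjusted p = 0.122), with all TCE mice above all controls. Krt18, which hepatocytes make as well and whose probe was the brightest of the list, had 0.51 (limma adjusted p = 0.139), likewise with separate groups. In all, 5 of the 15 had separate groups (25.7% of all detected probes), with 2 higher (15.5%) and 3 lower (10.2%) in TCE mice. The 3 lower, named after their values were seen, were Cdh1 (-0.47, limma adjusted p = 0.178), Aqp1 (-0.46, limma adjusted p = 0.309) and Pkd2 (-0.19, limma adjusted p = 0.424). The summed linear signal of the 15 genes was 93403, 107367 and 111572 in control mice and 121507, 129993 and 111310 in TCE mice, and most of it came from Krt18 and Krt8, which hepatocytes make, so that it does not describe the duct genes as a whole.

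The Notch and YAP pathways act upstream of Sox9. Of 21 listed genes 15 were detected and 0 were past the threshold, and TCE mice had higher means for 5 and lower means for 10, with a median log2 fold change of -0.10 (-0.24 to -0.01 with 1 mouse left out). Separate groups were seen for 8 of the 15 (25.7% of all detected probes), of which 6 were lower (10.2%) and 2 higher (15.5%) in TCE mice. The 6 were Notch1, Notch2, Jag1, Rbpj, Heyl and Cyr61, and the 2 were Wwtr1 and Tead1. Heyl counts as detected through the control group alone. Cyr61, a target of YAP, had a mean signal of 8.56 ± 0.48 in control mice and of 7.33 ± 0.26 in TCE mice (SD, n = 3 each). Every TCE mouse was below every control. Its fitted difference was -1.23 in log2 (standard error 0.27, limma adjusted p = 0.0886), outside the threshold. Jag1, a ligand of Notch, had -1.04 (standard error 0.58, limma adjusted p = 0.409), and its signal of 8.94 in control mouse 3 stood above the 6.81 and 6.74 of the other controls. Notch1, Notch2, Rbpj, Wwtr1, Tead1 and Ctgf were chosen after their values were seen. Notch1 had a signal of 7.60, 7.48 and 7.65 in control mice and of 6.94, 6.85 and 6.56 in TCE mice. The groups were separate, and the difference was -0.79 in log2 (standard error 0.14, limma adjusted p = 0.0504). Notch2 had -0.50 (limma adjusted p = 0.147) and Rbpj -0.43 (limma adjusted p = 0.248), also with separate groups. In the other direction, Wwtr1, which encodes the YAP relative TAZ, had 0.77 (limma adjusted p = 0.0755) and Tead1 0.39 (limma adjusted p = 0.229), both with separate groups, and Ctgf, also a target of YAP, had 0.69 with overlapping groups. Yap1, with the brightest probe, had -0.14. Hes1, Hey1, Jag2, Dll4, Tead4 and Ankrd1 were not detected, and Hes1, a direct target of Notch, was well above background in 2 control mice and 0 TCE mice.

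Prom1 encodes the membrane protein CD133, used to isolate progenitor cells and tumour cells. Its detected probe, at chr5:44384861-44384920 on the minus strand, had a signal of 6.88, 7.14 and 6.88 in control mice and of 6.25, 5.32 and 6.48 in TCE mice. The controls lay close together, all TCE mice were below them, and TCE mouse 2 was the lowest. The means were 6.97 ± 0.15 and 6.01 ± 0.61 (SD, n = 3 each). This is a log2 fold change of -0.95, with 0.30 as its standard error and -1.69 to -0.22 as its 95% interval (unadjusted limma p = 0.0187, limma adjusted p = 0.182), and the exact permutation test gave p = 0.1, the smallest possible. Without TCE mouse 2 it was -0.60 (limma adjusted p = 0.155), and with another background correction, normexp, it was -0.54 (limma adjusted p = 0.188). The normexp setting adds an offset of 50 to each linear signal, which by itself draws the changes of dim probes towards 0. The other probe of the gene, at chr5:44397410-44397469, lies in another part of the gene and was well above background in 0 mice, so the lower signal rests on 1 probe.

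Cd24a encodes a small surface protein of progenitor and duct cells. Its signal was 6.44, 6.59 and 6.56 in control mice and 6.49, 6.50 and 6.31 in TCE mice. TCE mice 1 and 2 lay within the controls and TCE mouse 3 just below them. The fitted change was -0.09 in log2 (standard error 0.12, 95% interval -0.37 to 0.19, limma adjusted p = 0.715), so that the interval lies within a 2-fold change in either direction.

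Of 13 other progenitor genes 9 were detected, with 1 past the threshold, compared with 1.41% of all detected probes. TCE mice had higher means for 3 and lower means for 6, with a median log2 fold change of -0.13 (-0.19 to -0.08 with 1 mouse left out, -0.05 with normexp). Lgr5, a receptor for R-spondins that in normal liver is found in hepatocytes around the central vein, was the gene past the threshold. Its signal was 7.17, 7.64 and 7.74 in control mice and 6.34, 6.47 and 6.39 in TCE mice. Every TCE mouse was below every control. Lgr5 fell by 1.11 on the log2 scale (standard error 0.17, limma adjusted p = 0.0351). Leaving out 1 mouse at a time kept the call only without control mouse 1 and lost it in the other 5 fits. Over the 6 fits the log2 fold change lay between -1.29 and -1.01 and the limma adjusted p between 0.0300 and 0.147. With normexp background correction the value was -0.70, less than a 2-fold change, and the call was lost (limma adjusted p = 0.0711). The part of the normexp offset in this was not tested. Tnfrsf12a, the receptor for TWEAK, a cytokine that makes progenitor cells divide, had a signal of 9.97, 9.71 and 9.63 in control mice and of 10.77, 10.63 and 10.30 in TCE mice. All TCE mice were above all controls, and the log2 fold change of 0.80 was outside the threshold (limma adjusted p = 0.0792). Prox1 had -0.51 (limma adjusted p = 0.430) and Anpep, with the brightest probe, 0.22. Foxl1, Foxj1, Dlk1 and Ncam1 were not detected.

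**Figure D2:**
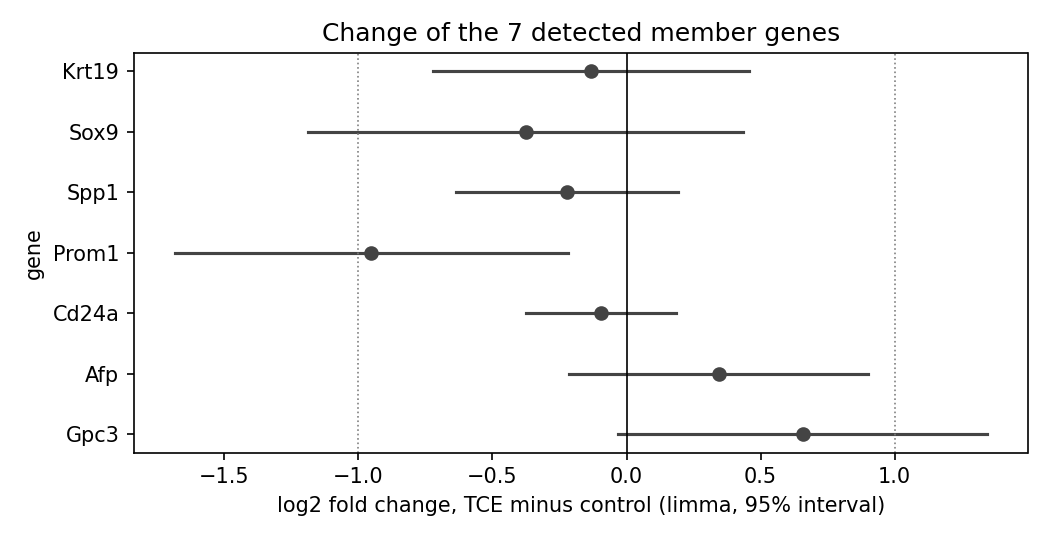
Log2 fold change (horizontal axis, TCE minus control) of the 7 detected genes (vertical axis) by limma, with its 95% interval; dotted lines mark a 2-fold change. The interval of Prom1 runs from -1.69 to -0.22 and those of the other genes include 0; for Gpc3, 2 of the 3 controls were not well above background.

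Afp encodes alpha-fetoprotein, the main plasma protein of the fetus. Its probe, at chr5:90937781-90937840, had a signal of 7.50, 7.90 and 7.26 in control mice and of 7.92, 7.56 and 8.22 in TCE mice. TCE mice 1 and 3 were above all controls, TCE mouse 1 only just, and TCE mouse 2 lay within them. TCE minus control gave 0.34 in log2 (standard error 0.23, 95% interval -0.21 to 0.90, limma adjusted p = 0.491), and with 1 mouse left out it ranged from 0.19 to 0.52. The other genes of the albumin family, which neighbour Afp on chromosome 5, were all detected and had log2 fold changes of -0.18 (Alb), -0.02 (Afm) and 0.03 (Gc), and for each of them the groups overlapped. 

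Of 11 regulators of Afp 10 were detected, with 1 past the threshold, compared with 1.41% of all detected probes. The median log2 fold change was -0.24, with 3 higher and 7 lower in the TCE group. Separate groups were seen for 5 of the 10 (25.7% of all detected probes), with 4 lower (10.2%) and 1 higher (15.5%) in TCE mice. Foxa2, a factor that opens chromatin at liver genes, was the gene past the threshold. Its signal was 12.23, 12.37 and 12.65 in control mice and 11.45, 11.45 and 11.15 in TCE mice. The groups were separate. Foxa2 fell by 1.07 on the log2 scale (standard error 0.16, limma adjusted p = 0.0319). Leaving out any of the 6 mice lost the call (limma adjusted p 0.0742 to 0.130) while the log2 fold change lay between -1.16 and -0.95. Its relatives Foxa1 and Foxa3 had -0.57 (limma adjusted p = 0.409) and -0.43 (limma adjusted p = 0.150). Among the other activators, Cebpa had a log2 fold change of -0.42, Nr5a2 of -0.39 and Hnf4a of 0.09, and none of these was past the threshold by limma. The repressors of Afp differed in detection. Zhx2, which lowers Afp after birth, was not detected, and Zbtb20 and Zfhx3 each had a log2 fold change of -0.09. Trp53, which also represses Afp, had 0.50 (limma adjusted p = 0.148).

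Gpc3 encodes glypican 3, a heparan sulfate proteoglycan of the cell surface. Its detected probe, at chrX:49625740-49625799 on the minus strand, had a signal of 5.03, 5.30 and 4.80 in control mice, well above background in control mouse 2 alone, and of 6.04, 5.97 and 5.09 in TCE mice, well above background in all 3. TCE mice 1 and 2 were above all controls, and TCE mouse 3 lay within them. The probe therefore counts as detected through the TCE group alone, and since 2 of the 3 controls were not well above background, the size of the difference is not measured precisely. The fitted value was 0.66, and it ranged from 0.48 without TCE mouse 1 to 0.97 without TCE mouse 3. With normexp background correction, whose offset of 50 draws the changes of dim probes towards 0, it was 0.31. The second probe, at chrX:49740892-49740951, was well above background in 0 of the 6 mice. Among the other glypicans Gpc1 had -0.57 (limma adjusted p = 0.0593) and Gpc4 -0.31 (limma adjusted p = 0.208), in both cases with every TCE mouse below every control, and Gpc2, Gpc5 and Gpc6 were not detected.

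H19 is an imprinted RNA that is not translated. It was measured by 2 probes on the minus strand of chromosome 7, at chr7:149761492-149761551 (probe 1) and at chr7:149762417-149762476 (probe 2). Probe 1 had a signal of 4.38, 5.04 and 4.76 in control mice and of 6.42, 4.96 and 4.31 in TCE mice. It was well above background in control mouse 2 and in TCE mice 1 and 2, with TCE mouse 1 above all other mice and the rest overlapping. Probe 2 had a signal of 3.73, 2.95 and 2.50 in control mice and of 2.53, 2.53 and 3.43 in TCE mice, not well above background in any of them, so the high value in TCE mouse 1 was seen with 1 probe only. Neither was detected by the rule, so neither is among the probes of the main test. The sequences are shown since they measure the same RNA, and no part is in capitals:
H19 probe 1: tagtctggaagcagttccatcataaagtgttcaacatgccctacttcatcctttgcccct
H19 probe 2: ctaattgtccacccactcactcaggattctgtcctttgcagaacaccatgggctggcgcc
Of the genes beside H19, Igf2, which shares its enhancers with H19 in the fetal liver, was not detected. Tnnt3 was not detected either, and Ins2, Mrpl23 and Lsp1 had log2 fold changes of -0.20, -0.06 and -0.15 (limma adjusted p = 0.868, 0.847 and 0.714). Ins2 counts as detected through the control group alone, so its value is not measured precisely.

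Of 21 other genes of fetal liver and liver tumours 13 were detected and 0 were past the threshold. In TCE mice 8 had a higher mean and 5 a lower one, with a median log2 fold change of 0.06 (0.0018 to 0.26 with 1 mouse left out, 0.11 with normexp). The 8 include Peg3, which was well above background in TCE mice only and for which the values give just a limit, at least 1.22 times. Separate groups were seen for 5 of the 13 (25.7% of all detected probes), with 4 higher (15.5%) and 1 lower (10.2%) in TCE mice. The 4 were Lcn2, Peg3 and, named after their values were seen, Golm1 (0.45, limma adjusted p = 0.133) and Plagl1 (0.33, limma adjusted p = 0.294). Lcn2, a secreted protein of inflamed liver, had a signal of 8.55, 8.88 and 8.29 in control mice and of 13.42, 10.40 and 12.40 in TCE mice. All TCE mice were far above the controls and differed widely among themselves, and the means differed by 3.50 in log2 (standard error 0.72, limma adjusted p = 0.0752). Meg3, an imprinted RNA, had a signal of 7.18, 7.07 and 7.02 in control mice and of 5.43, 5.62 and 3.59 in TCE mice, the last not well above background. All TCE mice were below the controls, and since the value of TCE mouse 3 is near background, the size of the difference is not measured precisely (fitted value -2.21, limma adjusted p = 0.103). Hmga1, with the brightest probe, had -0.32. The list's summed linear signal was 9411, 9904 and 10569 in control mice and 22404, 6345 and 18372 in TCE mice. Most of it in TCE mice 1 and 3 came from Lcn2, Hmga1 and Tff3, so that it does not describe the list as a whole. Hmga1 and Tff3 had their lowest log2 signals in TCE mouse 2, 11.08 and 8.99. Igf2, Dlk1, Igf2bp1, Igf2bp2, Igf2bp3, Lin28b, Hmga2 and Ptn were not detected.

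**Figure D3:**
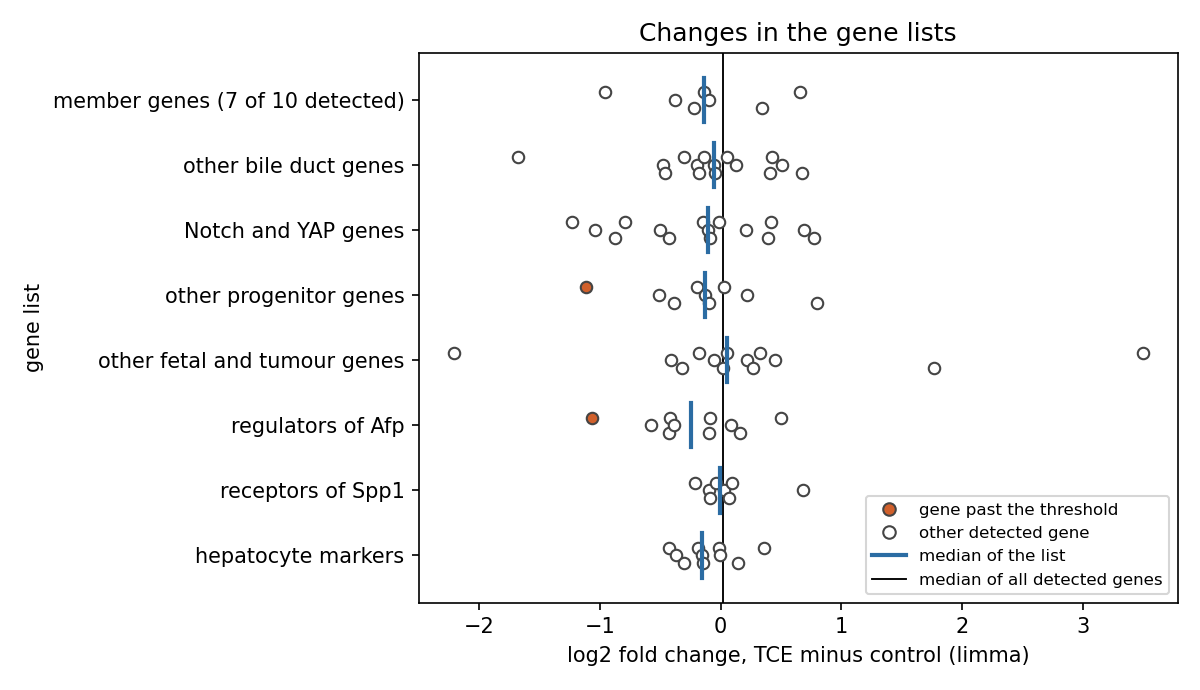
Log2 fold change (horizontal axis, TCE minus control, limma) of the detected genes of each list (vertical axis), with a blue bar for the median of the list and a line at 0.02 for the median of all detected genes. Filled points are Lgr5 and Foxa2, the genes past the threshold, and the point at 1.77 is Peg3, for which no control mouse had a signal well above background.

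For 3 genes the signal of the brightest detected probe spanned more than 1 log2 unit over the 6 mice, and the genes with the nearest profile were sought among 13283 others by the root mean square difference of mean-centred log2 signals. Nearest to Sox9 were 1700113H08Rik (0.11) and Zbtb16 (0.15), both lowest in control mouse 3 as Sox9 was. The signal of 1700113H08Rik in control mouse 3, 4.61, was not well above background, so its profile is not measured precisely. Nearest to Prom1 were Hsd3b6 and Ogg1 (0.13 each), which were lowest in TCE mouse 2. Nearest to Gpc3 were Ccne1 (0.07) and Lbp (0.13), which were higher in TCE mice 1 and 2 than in TCE mouse 3, although 2 of the 6 values of Gpc3 were near background, so that its profile is not measured precisely. By limma none of these 6 genes was past the threshold.

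The label of the samples as liver was checked with 10 hepatocyte markers, all of which were detected on every array. Their brightest probe was that of Alb, and 0 were past the threshold, with a median log2 fold change of -0.15. Cps1 had -0.42, Apob -0.37 and Tat 0.36, each with separate groups, and 2 of the 10 were higher and 8 lower in TCE mice. Their summed linear signal was 1286620, 1282300 and 1297310 in control mice and 1118150, 1240390 and 1289230 in TCE mice, so that TCE mouse 1 was the lowest. Markers of other cells were read in the same way, and their part in the results was not tested. All 7 Kupffer cell markers were detected, and the summed signal, led by Cd5l, was 27486, 26822 and 24229 in control mice and 23047, 23328 and 28889 in TCE mice, with -0.43 for Marco and -0.22 for Emr1. All 7 endothelial markers were detected, led by Clec4g, with 26559, 25953 and 26254 in control mice and 14379, 27608 and 25211 in TCE mice, and the sum of TCE mouse 1 stood below the rest. The mean of each of the 7 was lower in TCE mice, for Stab2 (-0.54) and Stab1 (-0.40) with every TCE mouse below every control, and Oit3 had -0.41. By limma the adjusted p was 0.345, 0.354 and 0.482. Of 9 stellate cell and fibroblast markers 8 were detected, led by Dcn, with sums of 31505, 23588 and 36136 in control mice and of 29972, 33379 and 26280 in TCE mice. Des was not detected, Lrat differed by -1.35 in log2 (limma adjusted p = 0.0676) and Reln by -1.34 with overlapping groups, control mouse 1 being far above the other controls. Reln counts as detected through the control group alone, so the size of its difference is not measured precisely. Dcn had 0.01, and 3 of the 8 were higher and 5 lower in TCE mice, with a median of -0.22 (-0.41 to -0.05 with 1 mouse left out). Of 6 mesothelial markers, Msln alone was detected, with linear signals of 221, 205 and 285 in control mice and 381, 467 and 198 in TCE mice. Of 7 lymphocyte markers 3 were detected, led by Nkg7, with sums of 1920, 1839 and 1913 in control mice and 1506, 1311 and 1773 in TCE mice, and Ms4a1, Cd3g and Cd79b were among those that were not. Cd3e had -0.63 and Cd79a 0.40, with overlapping groups. The Cd79a probe is placed at chr12:53180558-53180617, and whether it measures that gene was not tested. Of 7 neutrophil markers 5 were detected, led by Elane, with sums of 1301, 1843 and 1824 in control mice and 1834, 1731 and 2127 in TCE mice. Ngp and Ltf were not detected, and S100a8 differed by 1.19 in log2 (limma adjusted p = 0.0886) and S100a9 by 0.26. Of 7 red cell markers 4 were detected, led by Hba-a1, with sums of 110834, 78476 and 77161 in control mice and 57966, 29892 and 91818 in TCE mice. TCE mouse 2, in which Prom1 was lowest, had the lowest sum. Alas2, an enzyme of heme synthesis in red cells, had -0.91 (limma adjusted p = 0.0215), less than a 2-fold change, with every TCE mouse below every control. Hba-a1 had -0.71, with overlapping groups. In all of these lists of other cells 0 genes were past the threshold by limma.

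The array of control mouse 1 was alone on slide 1 and was scanned separately, whereas the remaining 5 arrays were on slide 2. With the slide as a block, which leaves the comparison to the arrays of slide 2, the log2 fold change of Prom1 was -1.00, of Gpc3 0.65, of Afp 0.32, of Spp1 -0.22, of Sox9 -0.17, of Cd24a -0.14 and of Krt19 -0.01, and 0 were past the threshold by limma. With the same block Lgr5 had -1.29 and kept its call (limma adjusted p = 0.0279), and Foxa2 had -1.16 and lost it (limma adjusted p = 0.0704).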

How the data were processed

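Liver RNA of 3 control and 3 TCE mice was measured on 1-colour arrays (Agilent design 028005, positions on mm9). The authors deposited the output of Feature Extraction 10.7.1.1, with the background-corrected intensity of each spot, and their own quantile-normalized log2 means of each group. Here control spots and outlier spots (123 to 189 per array) were left out, the intensity was put on the log2 scale, spots were averaged per probe, and quantile normalization was applied across arrays. The number of probes well above background was 23537, 24934 and 24122 in control mice and 24965, 23569 and 23646 in TCE mice. Mice are numbered by the replicate in the sample labels; the numbers in the sample titles and in the names of the deposited files differ by 1 from each other, and each file was taken by the sample it is attached to. Tests used limma 3.58.1 (R 4.3.3, package data.table, release 1.17.8), adjusted over all 22731 detected probes. Where a list gene had several detected probes, the brightest on average was used.

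The members and lists were chosen with earlier results of these data known. Named were all members, in each list the genes past the threshold, the 2 largest changes among the rest and the brightest gene, every gene of the albumin family, the glypicans, the H19 locus and the regulators of Afp, and the nearest profiles, with some genes left out of the text. A probe with several spots counted as well above background when most of them were, a rule set after the results were seen to match the earlier count of detected probes. Fits were tested on simulated data. Alternatives were another normalization, background correction, filters, blocks, the methods' t-test, the authors' deposited group means and leaving out each mouse.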

Additional observations from a re-analysis of the deposited data

How the results depend on the processing

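The number of the 10 genes past the threshold was 0 under all 17 alternatives. The number of detected probes past it, 321, became 96 with no filter on dim probes, 177 with the slide as a block, 594 by the methods' t-test before adjustment, 35 after it, and 114 to 245 with 1 mouse left out. With the replicate number as a block it was 63; the numbers do not pair the mice, since the deviations of mice with the same number correlated at 0.09, 0.01 and -0.09, and 1 mouse of 3 correlated best with its own number. Of the member fold changes 110 of 111 kept their direction, but many of these could not have changed. Another filter, the replicate block and the t-tests return the same fold change as the main fit, and the authors' means share its normalization. The fold change of Krt19 ranged from -0.27 to 0.11 with 1 mouse left out, above 0 without TCE mouse 3. The cause was not tested. Of 144 list medians 141 moved by less than the spread between mice; with 1 mouse left out that of the fetal and tumour genes ranged from 0.0018 to 0.26 and that of the hepatocyte markers from -0.20 to -0.077. Gpc3 gave no value where all 6 arrays had to be above background. The calls of Lgr5, Foxa2 and Krt23 were lost in 9, 10 and 8 of 15 alternatives. These included no filter on dim probes (limma adjusted p = 0.123, 0.113 and 0.109). The replicate number as a block and the methods' t-test after adjustment lost them as well. H19 was tested with no filter and, by probe 1, without TCE mouse 3, and by limma it was not past the threshold. With normexp background correction the values of Prom1 and Gpc3 were nearer 0, at -0.54 and 0.31. Those of Sox9 (-0.21), Spp1 (-0.13), Krt19 (-0.07) and Afp (0.26) were also nearer 0, and that of Cd24a (-0.11) was not. The offset of 50 in that setting draws changes of dim probes towards 0 by construction. These values therefore do not show the effect of background correction alone. Signals near background, as those of Krt7, Epcam, H19 and Gpc3, are not measured precisely.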

Other observations

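The keratin family, with Krt7 and Krt19 included, was looked at after the values had been seen. The array has 52 genes with a keratin symbol, of which 15 were detected, 9 of them higher in TCE mice and 6 lower, with a median log2 fold change of 0.19, beside 0.02 for all detected genes. Past the threshold was 1, Krt23, a keratin of epithelial cells, compared with 1.41% of all detected probes. Its signal was 7.33, 7.51 and 6.93 in control mice and 9.31, 10.63 and 9.95 in TCE mice. Every TCE mouse was above every control, with TCE mouse 2 the highest, a change of 2.70 in log2 (standard error 0.35, limma adjusted p = 0.0218). The call was lost without control mouse 1, 2 or 3 or TCE mouse 3, with limma adjusted p between 0.0219 and 0.0885 over the 6 fits with 1 mouse left out, while the log2 fold change lay between 2.36 and 3.03. With the slide as a block it was also lost (2.74, limma adjusted p = 0.0748). Krt79 differed by 1.05 in log2 (limma adjusted p = 0.0646) and Krt31 by 0.96 (limma adjusted p = 0.0516), each with all TCE mice above all controls. Krt80 had -1.39 (limma adjusted p = 0.129) and Krt16 -0.88 (limma adjusted p = 0.381), each with all TCE mice below all controls. In all, the groups were separate with TCE higher for 5 keratins (15.5% of all detected probes) and with TCE lower for 2 (10.2%).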
